A study of Mus musculus with 6 samples.

Results

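The 9 genes described here carry retinoids into skin cells, bind them, convert them and read them: Stra6, Crabp1, Crabp2, Dhrs9, Aldh1a2, Aldh1a3, Cyp26b1, Rarb and Rarg. They were taken by symbol from the 35275 genes of the count and FPKM tables, all 9 were found, and all 9 were among the 15720 genes with enough counts to be tested. The set was chosen by the level of Stra6, selected on its higher counts in the 3 IL-33 KO libraries than in WT, so the difference of Stra6 between genotypes is given as a description with no test. The name uptake and metabolism fits 7 of the 9, since Rarb and Rarg encode nuclear receptors. The libraries come from C57BL/6 mice, 3 from IL-33 KO mice and 3 from WT mice. IL-33 KO mice lack interleukin-33, an alarm cytokine kept in the nuclei of epithelial cells. Every mouse of both genotypes had the contact allergen DNFB (dinitrofluorobenzene, 0.25% in acetone and olive oil) put on the back 3 times a week over 22 days, so no untreated skin is compared and both groups hold chronically inflamed skin. RNA came from the epithelial region of back skin. The labels give no age and leave unsaid whether every library is its own mouse. What p-values measure is therefore the library-to-library spread, which may be technical.

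Vitamin A circulates as retinol bound to a carrier, and Stra6 is a membrane receptor that takes retinol from this carrier into cells. Inside the cell, retinol is oxidised to retinal by dehydrogenases such as Dhrs9 and then irreversibly to retinoic acid by the Aldh1a enzymes. Crabp1 and Crabp2 bind retinoic acid in the cytosol, Cyp26 enzymes degrade it, and the receptors Rara, Rarb and Rarg bind DNA with an Rxr partner and change transcription when retinoic acid is present. In skin, retinoids act on keratinocyte differentiation, on sebaceous glands and on the hair cycle. Stra6 and Rarb are both known as genes that retinoic acid induces, which is why their promoters are shown.

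Retinoic acid receptors bind repeats of a core hexamer. The letters AGGTCA, the variant AGTTCA and the variant GGTTCA were searched on both strands, as any pair in the same orientation with a spacer of 5 bases, in RefSeq windows of GRCm38.p6 that run from 250 bases before to 50 bases after a gene's start. Such windows matched 7 of the 9 genes by symbol, with 11 windows in all. Rarb has the pair, 53 bases before its start, and it is the only 1 of the 11 windows that has it. Of all 32851 windows of this length, 20 hold it (0.0609%). No window of these genes holds the pair with a spacer of 1 base (0.1% of all windows do) or of 2 bases (0.21%). Stra6 has 4 starts among these windows, from 58129088 to 58134665 on chromosome 9. The window of the third holds a single hexamer 15 bases past the start, while the other Stra6 windows hold none. The deposited gene span begins further upstream, at 58063788, and that position was not searched. Single hexamers also lie 88 bases before the Dhrs9 start and 225 bases before a Rarg start. How many of all windows hold a single hexamer was not counted. The Rarb window lies at chr14:16575427-16575726 on the minus strand and the Stra6 window at chr9:58133825-58134124 on the plus strand, each 5′ to 3′ with the core hexamers in capitals. A match is a run of letters and not a measured binding site.
Rarb: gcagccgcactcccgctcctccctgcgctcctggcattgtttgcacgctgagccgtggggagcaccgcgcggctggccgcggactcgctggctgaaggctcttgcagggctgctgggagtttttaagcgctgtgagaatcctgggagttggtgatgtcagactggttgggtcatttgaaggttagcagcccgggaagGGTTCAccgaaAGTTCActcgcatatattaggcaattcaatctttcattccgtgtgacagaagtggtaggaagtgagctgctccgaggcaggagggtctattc
Stra6: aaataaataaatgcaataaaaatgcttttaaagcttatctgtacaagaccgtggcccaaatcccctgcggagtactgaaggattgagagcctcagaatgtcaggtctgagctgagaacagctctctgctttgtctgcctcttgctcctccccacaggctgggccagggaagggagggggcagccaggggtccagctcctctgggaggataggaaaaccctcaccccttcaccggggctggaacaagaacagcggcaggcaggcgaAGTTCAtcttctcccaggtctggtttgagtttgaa

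The libraries held 20459574 to 24359612 counts. Il33, the deleted gene, had 21, 22 and 11 counts in IL-33 KO libraries 1 to 3, against 3906, 3086 and 2817 counts in WT libraries 1 to 3, so the labels and the libraries go together. The labelled tissue was checked by its markers: the basal keratins Krt14 and Krt5 stood at 16774 ± 3636 and 8919 ± 987 CPM in IL-33 KO skin, against 23341 ± 6853 and 10381 ± 1754 CPM in WT skin (CPM, the count scaled to library size; SD, n = 3). Dermal genes were present as well, with the collagen gene Col1a1 at 3945 ± 159 CPM in IL-33 KO skin, against 4739 ± 1384 CPM in WT skin (SD, n = 3). In edgeR's quasi-likelihood test 3 genes (0.0191%) passed an adjusted p of 0.05.

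Per gene length, Crabp2 was the most abundant of the 9 genes in every library, and Aldh1a2 and Rarb were the least abundant. Crabp2 ranged from 222 to 417 FPKM (the count scaled by gene length and library total) over the 6 libraries and lay above Crabp1, at 51.9 to 143 FPKM, without overlap. Rarg followed at 53.0 to 62.3 FPKM, within the range of Crabp1, and was the steadiest of the abundant genes. Aldh1a3, at 25.4 to 54.1 FPKM, and Cyp26b1, at 16.7 to 34.8 FPKM, overlapped each other, and Aldh1a3 also touched the range of Rarg. Dhrs9 (5.17 to 10.9 FPKM) and Stra6 (2.96 to 10.5 FPKM) lay below these. Aldh1a2, at 0.255 to 2.59 FPKM, and Rarb, at 0.340 to 0.571 FPKM, were near the floor and overlapped. In IL-33 KO, Stra6 (9.07 to 10.5 FPKM) lay above Dhrs9 (5.43 to 6.79 FPKM). In WT, Stra6 (2.96 to 4.48 FPKM) lay below Dhrs9 (5.17 to 10.9 FPKM). Since the set was chosen by the higher Stra6 level in IL-33 KO, nothing is read from this change of order. Crabp2 made up 53.9%, 54.9% and 56.2% of the summed FPKM of the 9 genes in IL-33 KO libraries 1 to 3, against 63.2%, 60.8% and 58.2% in WT libraries 1 to 3. The sum includes Stra6, chosen for its higher level in IL-33 KO, and the share was not tested. Crabp2 alone overlapped, at 222 to 315 FPKM in IL-33 KO, against 303 to 417 FPKM in WT.

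**Figure D1:**
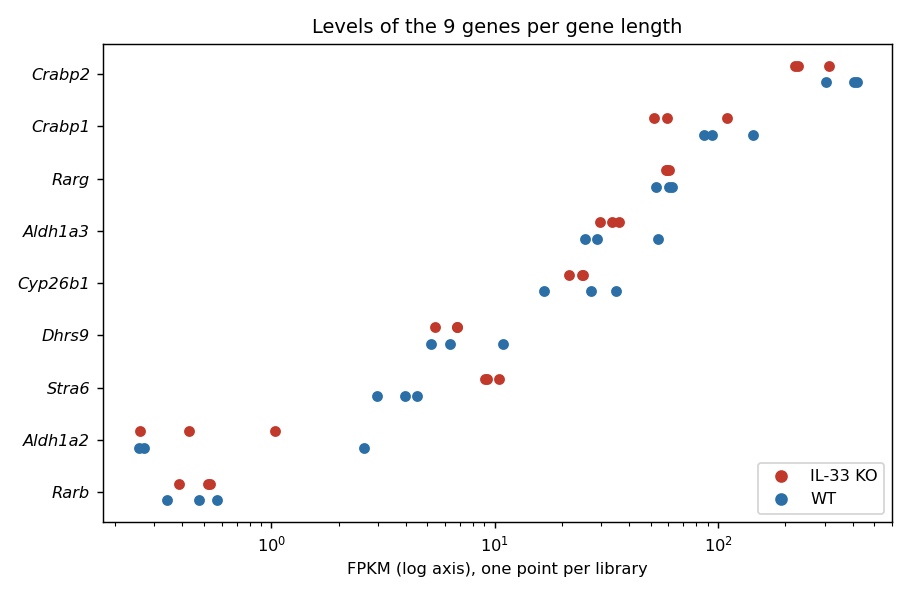
FPKM on a log axis for each of the 9 genes, with 1 point per library, IL-33 KO above WT in each row. Crabp2 sits alone at 222 to 417 FPKM, and Stra6 shows separate clouds for the genotypes.

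Stra6, the retinol receptor, was the member that stood higher in IL-33 KO skin. It had 717, 661 and 579 counts in IL-33 KO libraries 1 to 3, against 259, 222 and 334 counts in WT libraries 1 to 3. Scaled to library size these are 30.2, 27.9 and 28.0 CPM in IL-33 KO, against 13.1, 9.70 and 13.2 CPM in WT. The lowest IL-33 KO library thus lay above the highest WT library, and the replicates of each genotype were close together. The mean was 28.7 ± 1.32 CPM in IL-33 KO skin, against 12.0 ± 1.97 CPM in WT skin (SD, n = 3), 2.40 times as high in IL-33 KO, with a fitted log2 fold change of 1.26. Of the 15720 tested genes, 269 had a log2 fold change at least as high. Since this difference chose the set, nothing is read from it here, and 7.46% of all tested genes had every IL-33 KO library above every WT library.

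The Stra6 gene spans chromosome 9, 58063788 to 58153996 (mm10, plus strand) in the deposited tables. In GENCODE M21, Ccdc33 overlaps it on the minus strand and Gm16131 on the plus strand. Ccdc33 had at most 3 counts in any library and Gm16131 had 0 in all 6. Within 250 kb of Stra6, 10 other genes were tested. None passed in edgeR, 5 had a log2 fold change above 0 and 5 below 0, from -0.52 to 1.17. The highest was that of Islr2, with 18, 16 and 11 counts in IL-33 KO skin, against 4, 3 and 13 counts in WT skin. The lowest was that of Cyp11a1. Scaled to library size, Islr2 was higher and Cyp11a1 lower in IL-33 KO without overlap, where 7.46% and 6.47% of all tested genes were. These neighbours were looked at after the Stra6 values were known.

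**Figure D2:**
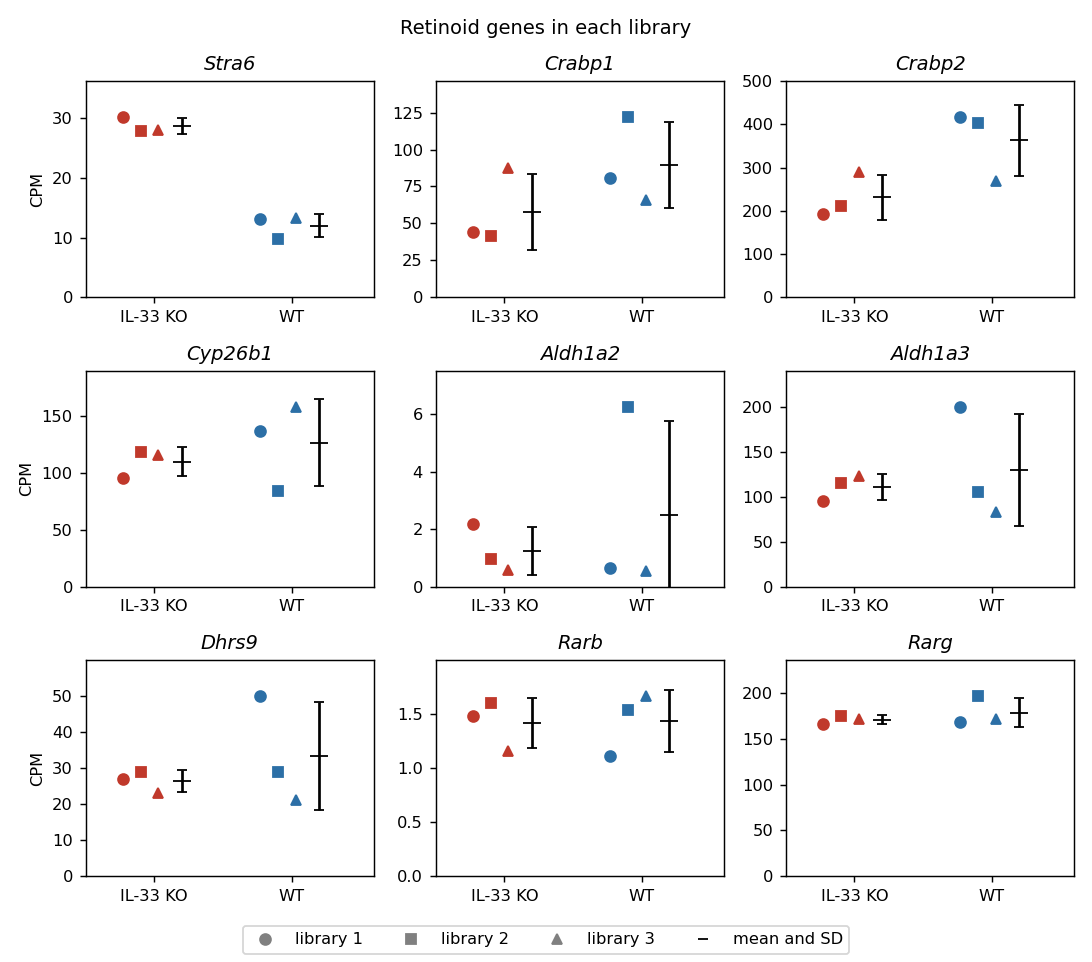
CPM of the 9 genes, 1 panel each with its own axis from 0, IL-33 KO left and WT right. Marker shapes show the library number and the bars the mean and SD of 3 libraries, with the lower SD bar of Aldh1a2 in WT ending at the axis. The genotypes do not overlap for Stra6 (27.9 to 30.2 against 9.70 to 13.2 CPM), and overlap for the other 8.

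Genes of the hair follicle, where retinoid genes are known to be expressed, stood on the same side as Stra6. All 29 tested genes of a hair follicle marker list had log2 fold changes above 0 (median 1.83, against -0.013 for all tested genes), 25 were higher without overlap (7.46% of all tested genes were), and 28 had an unadjusted p under 0.05 (9.02% of all tested genes). None passed over all genes in edgeR, and 15 passed in DESeq2 (1.31% of all tested genes). The summed level of the list was 26058, 13716 and 12933 CPM in IL-33 KO libraries 1 to 3, against 4607, 3175 and 7701 CPM in WT libraries 1 to 3. The list was chosen with earlier results of these data known. No marker of the list was at 0 in all libraries. Its most abundant members were Tchh, the inner root sheath protein trichohyalin, at 6222 ± 2821 CPM in IL-33 KO skin, against 1728 ± 825 CPM in WT skin, and the inner root sheath keratin Krt71, at 3245 ± 1599 CPM in IL-33 KO skin, against 923 ± 260 CPM in WT skin (SD, n = 3). IL-33 KO 1 was the highest library of all in both the list and Stra6, and WT 2 the lowest in both. WT 3 stood above WT 1 in the list (7701 and 4607 CPM), while Stra6 was level between them (13.2 and 13.1 CPM). IL-33 KO 1 stood far above IL-33 KO 2 in the list (26058 and 13716 CPM), while Stra6 was nearly level between the same libraries (30.2 and 27.9 CPM). The part of the follicle genes in the Stra6 difference was not tested, and in bulk RNA more cells of a type cannot be told apart from more RNA per cell.

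Over the 6 libraries, the 5 tested genes whose log2 CPM followed that of Stra6 most closely were Gnl3l, Myo10, Knop1, Rnf41 and Thrap3, with Pearson correlations of 0.9964, 0.9946, 0.9911, 0.9890 and 0.9875. Each was higher in IL-33 KO without overlap, with log2 fold changes of 0.15, 0.31, 0.21, 0.24 and 0.22, smaller than the 1.26 of Stra6. The 6 points fall into 2 genotypes, so these values mostly rank genes by how cleanly they separate them.

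**Figure D3:**
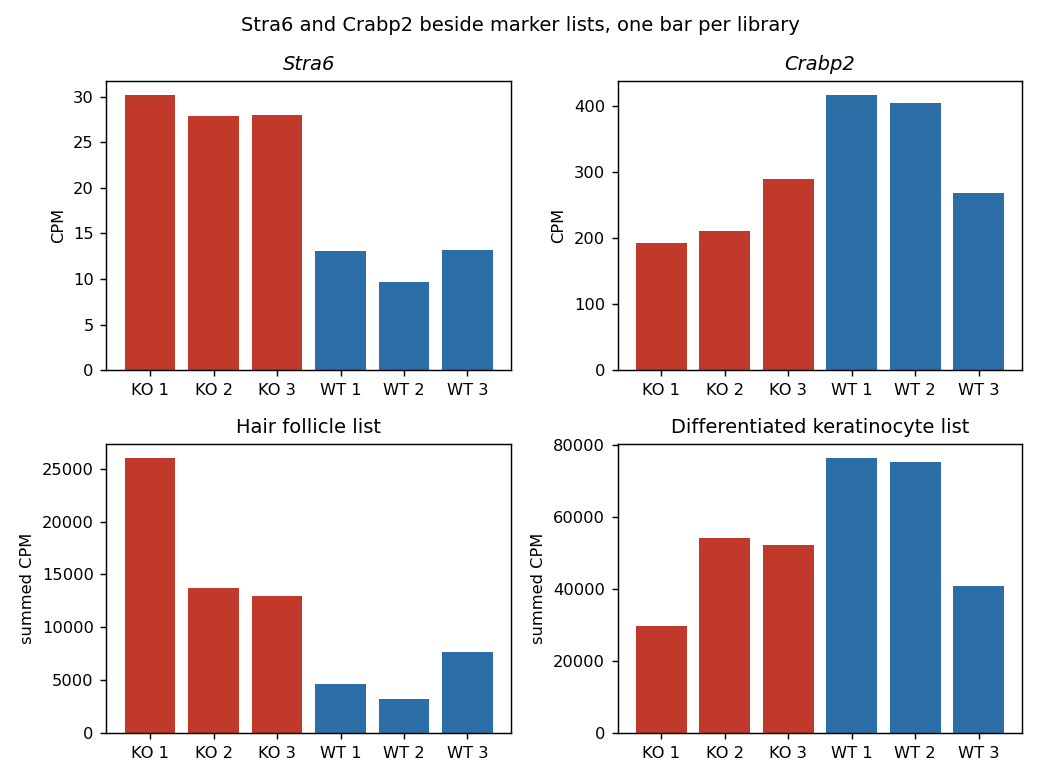
Bars from 0 for each library: Stra6 and Crabp2 in CPM above the summed CPM of the hair follicle and the differentiated keratinocyte lists. WT 3 has a higher hair follicle sum (7701 CPM) and a lower differentiated keratinocyte sum (40719 CPM) than the other WT libraries.

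The cytosolic retinoic acid binding proteins were lower on average in IL-33 KO, but neither passed the test and the genotypes overlapped. Crabp2, which hands retinoic acid to its nuclear receptors, stood at 192, 211 and 290 CPM in IL-33 KO libraries 1 to 3, against 417, 404 and 269 CPM in WT libraries 1 to 3. WT 3 was under IL-33 KO 3, while the other WT libraries exceeded all IL-33 KO libraries. Its log2 fold change was -0.65 ± 0.22 (SE), at an adjusted p of 0.498 in edgeR. Without WT 3 it was -0.83, at an adjusted p of 0.103 in the same edgeR test, the lowest of a range of 0.103 to 0.958 over the alternatives. Crabp1, a binding protein found in dermal cells around the follicle, stood at 44.1, 41.6 and 87.7 CPM in IL-33 KO, against 80.7, 122 and 66.0 CPM in WT. IL-33 KO 3 was above WT 1 and WT 3. The log2 fold change of Crabp1 was -0.63 ± 0.33 (SE, adjusted p 0.602 in edgeR), and it ranged from -1.06 without IL-33 KO 3 to -0.34 without WT 2. The ratio of Crabp2 to Crabp1 in FPKM was 3.75, 4.37 and 2.85 in IL-33 KO libraries 1 to 3, against 4.45, 2.86 and 3.51 in WT libraries 1 to 3, with full overlap.

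Most genes of the differentiated keratinocyte list stood on the same side as Crabp2. Of 16 tested genes of that list, 15 had log2 fold changes below 0 (median -0.48). Of all 15720 tested genes, 8176 were below 0 (median -0.013). None passed in edgeR or DESeq2. An unadjusted p under 0.05 was found for Rptn, with a log2 fold change of -1.13, and for Krt2, with one of 1.28 (9.02% of all tested genes had such a p). The suprabasal keratin gene Krt2 was the exception in direction and the only gene of the list without overlap. In IL-33 KO libraries 1 to 3 it had 35, 23 and 24 counts, against 15, 5 and 13 counts in WT. Of all tested genes, 7.46% were higher without overlap. The list's summed level was 29588, 54167 and 52103 CPM in IL-33 KO libraries 1 to 3, against 76399, 75015 and 40719 CPM in WT libraries 1 to 3. As for Crabp2, WT 1 and WT 2 were highest and IL-33 KO 1 lowest. WT 3 lay below IL-33 KO 2 in the list (40719 and 54167 CPM) but above it in Crabp2 (269 and 211 CPM). Krt1, a keratin of the suprabasal layers, stood at 8102 ± 3093 CPM in IL-33 KO skin, against 11691 ± 3812 CPM in WT skin, and Krt6a, a keratin of wounded and proliferating epidermis, at 8318 ± 1906 CPM in IL-33 KO skin, against 11137 ± 3661 CPM in WT skin (SD, n = 3). Krt6a, Krt6b and Krt16 made up much of the summed level. In IL-33 KO 1 they stood at 6121, 5057 and 3491 CPM, and in WT 1 at 14485, 15057 and 10941 CPM. The sum is thus not a measure of differentiation alone. No gene of the list was at 0 in all libraries. Their part in the Crabp2 values was not tested.

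The enzymes that make retinoic acid did not pass the test. Dhrs9, a short-chain dehydrogenase that oxidises retinol, stood at 27.1, 28.9 and 23.0 CPM in IL-33 KO libraries 1 to 3, against 49.9, 28.9 and 21.1 CPM in WT libraries 1 to 3. WT 1 alone was high. The log2 fold change was -0.34 ± 0.29 (SE, adjusted p 0.731 in edgeR), and 0.08 without WT 1. Aldh1a3, the main retinal dehydrogenase of these libraries, stood at 95.3, 115 and 123 CPM in IL-33 KO, against 200, 105 and 83.4 CPM in WT. Again WT 1 was the highest library, and WT 3 was below all IL-33 KO libraries. Its log2 fold change was -0.22 ± 0.30 (SE, adjusted p 0.832 in edgeR), and 0.24 without WT 1.

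Aldh1a2, a second retinal dehydrogenase, was rare, with 52, 23 and 12 counts in IL-33 KO libraries 1 to 3, against 13, 143 and 14 counts in WT libraries 1 to 3. WT 2 held more counts than the other 5 libraries together, and IL-33 KO 1 came next. The log2 fold change of -0.98 ± 0.93 (SE, adjusted p 0.752 in edgeR) became 1.05 without WT 2, so its direction rests on that library. Aldh1a3 exceeded Aldh1a2 in every library, by 28.6, 78.2 and 139 times in FPKM in IL-33 KO and by 201, 11.1 and 99.4 times in WT.

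Cyp26b1, which hydroxylates retinoic acid for removal and is the Cyp26 gene with enough counts to be tested, did not pass the test. It stood at 95.4, 118 and 116 CPM in IL-33 KO libraries 1 to 3, against 137, 84.2 and 158 CPM in WT libraries 1 to 3. The IL-33 KO values all lay within the WT range. The log2 fold change was -0.20 ± 0.22 (SE, adjusted p 0.790 in edgeR), and -0.01 without WT 3. The ratio of Aldh1a3, which makes retinoic acid, to Cyp26b1, which removes it, was 1.38, 1.35 and 1.46 in FPKM in IL-33 KO, against 2.01, 1.73 and 0.729 in WT. The IL-33 KO libraries were close to each other and lay inside the WT spread.

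The nuclear receptors did not pass the test either, and their values overlapped. Rarg, the main retinoic acid receptor of epidermis, stood at 166, 175 and 171 CPM in IL-33 KO libraries 1 to 3, against 168, 196 and 171 CPM in WT libraries 1 to 3. Its log2 fold change was -0.06 ± 0.12 (SE, adjusted p 0.883 in edgeR), and 0.02 when libraries were scaled by total counts. Rarb had 35, 38 and 24 counts in IL-33 KO, against 22, 35 and 42 counts in WT. Its log2 fold change was -0.02 ± 0.30 (SE, adjusted p 0.986 in edgeR), with the sign turned by total counts (0.05). In GENCODE M21, though not at the coordinates of the deposited tables, Rarb overlaps Top2b on the other strand, and 34.11% of the 50-base words of its GENCODE M21 transcripts, which reach further than the deposited gene model, also occur in transcripts of other genes. Top2b had 3998 to 5345 counts, and whether its reads entered the Rarb count was not tested. The other members shared at most 1.15% of such words with other genes.

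Of the 8 members other than Stra6, 0 passed in edgeR, where 0.0191% of all tested genes did, and Crabp2 was the only 1 of the 8 with an unadjusted p under 0.05 (0.0187, where 9.02% of all tested genes had such a p). In DESeq2 0 of the 8 passed as well, where 1.31% of all genes did. None of the 8 was without overlap between genotypes, where 13.9% of all tested genes were. The log2 fold changes of all 8 were below 0 in this fit, but those of Aldh1a2, Aldh1a3, Dhrs9, Rarb and Rarg turned above 0 in at least 1 alternative, and without WT 2 only 5 of the 9 genes were below 0. The median over the 9 genes was -0.22, against -0.013 over all tested genes.

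**Figure D4:**
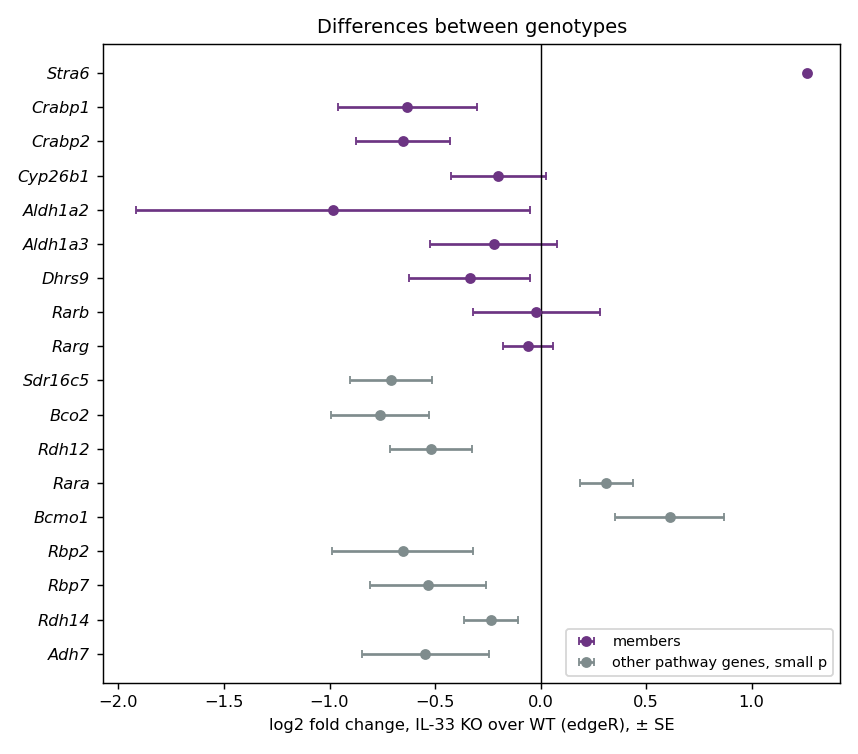
Log2 fold changes of IL-33 KO over WT from edgeR with their SE (none for Stra6, whose difference chose the set), for the 9 members and below them 9 other retinoid pathway genes with small p. Stra6 stands at 1.26, Crabp1 and Crabp2 at -0.63 and -0.65, and Aldh1a2 has the widest SE (0.93).

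The rest of the pathway was read from a list of 49 further genes, of which 41 were tested. None passed in edgeR or DESeq2, and 5 had an unadjusted p under 0.05, where 9.02% of all tested genes did. The log2 fold change was above 0 for 19 and below 0 for 22, with a median of -0.025. Without overlap between genotypes, 2 were higher in IL-33 KO and 3 were lower, where 7.46% and 6.47% of all tested genes were. Among carriers, 5 of 8 were below 0. Rbp2, which holds retinol in the cell, stood at 99.0, 118 and 147 CPM in IL-33 KO libraries 1 to 3, against 233, 244 and 95.1 CPM in WT libraries 1 to 3. It was highest in WT 2 and WT 1 and lowest in WT 3. Its adjusted p in edgeR was 0.597, with a log2 fold change of -0.65 ± 0.33 (SE). Rbp7, another carrier of this family, stood at 2.78 ± 0.151 CPM in IL-33 KO skin, against 4.04 ± 1.19 CPM in WT skin (SD, n = 3), at an adjusted p of 0.597 in edgeR.

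Of 18 retinol dehydrogenases and retinal reductases 15 were tested, 12 with a log2 fold change below 0 (median -0.16) and 2 without overlap, both lower. Of all 15720 tested genes, 8176 were below 0 and 6.47% were lower without overlap. Sdr16c5, a retinol dehydrogenase of epidermis, had the smallest p of the pathway. It stood at 35.7, 58.6 and 41.3 CPM in IL-33 KO libraries 1 to 3, against 63.8, 80.1 and 77.6 CPM in WT libraries 1 to 3. Every IL-33 KO library lay below every WT library, with a log2 fold change of -0.71 ± 0.19 (SE) at an adjusted p of 0.434 in edgeR. Rdh14 was also lower without overlap, at 15.4 ± 1.35 CPM in IL-33 KO skin, against 18.1 ± 0.127 CPM in WT skin (SD, n = 3; adjusted p 0.610 in edgeR). Rdh12, which reduces retinal, stood at 60.6 ± 10.9 CPM in IL-33 KO skin, against 86.9 ± 17.5 CPM in WT skin, and the alcohol dehydrogenase Adh7 at 24.4 ± 4.84 CPM in IL-33 KO skin, against 35.6 ± 13.9 CPM in WT skin (SD, n = 3). Neither passed, with adjusted p of 0.521 and 0.613 in edgeR.

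The enzymes that cleave carotenoids differed in direction. Bco2, which cleaves them off centre, had 44, 45 and 42 counts in IL-33 KO libraries 1 to 3, against 58, 86 and 79 counts in WT libraries 1 to 3. Bcmo1, which cleaves beta-carotene into retinal, had 62, 63 and 66 counts in IL-33 KO, against 29, 44 and 54 counts in WT. Neither overlapped between genotypes and neither passed, with log2 fold changes of -0.76 ± 0.23 and 0.61 ± 0.26 (SE) and adjusted p of 0.461 and 0.547 in edgeR. Lrat, which esterifies retinol for storage, stood at 77.1 ± 11.4 CPM in IL-33 KO skin, against 79.4 ± 3.45 CPM in WT skin (SD, n = 3). Rara, the third retinoic acid receptor, stood at 28.8, 27.7 and 32.2 CPM in IL-33 KO, against 25.3, 21.4 and 24.7 CPM in WT, without overlap (log2 fold change 0.31 ± 0.13 SE, adjusted p 0.539 in edgeR). Of the Cyp26 enzymes beside Cyp26b1, Cyp26a1 and Cyp26c1 had too few counts to be tested. Rbp4, Aldh1a1, Cyp26a1 and Cyp26c1 lie on chromosome 19 like Il33, 7.72 to 9.28 Mb away, and the first pair was tested with adjusted p of 0.730 and 0.926 in edgeR.

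Genes known to respond to retinoic acid in some cell type were read as a list of 23, of which 21 were tested and 5 also belong to the pathway list. None passed in edgeR or DESeq2, and 1 had an unadjusted p under 0.05, where 9.02% of all tested genes did. In all, 8 had a log2 fold change above 0 and 13 below 0, and the median was -0.051. The epidermal growth factor receptor ligands Areg and Hbegf stood at 22.3 ± 6.52 and 68.0 ± 14.4 CPM in IL-33 KO skin, against 37.1 ± 9.41 and 99.5 ± 45.2 CPM in WT skin (SD, n = 3). Their adjusted p in edgeR was 0.487 and 0.617. The transcription factor gene Bhlhe40 stood at 106 ± 11.9 CPM in IL-33 KO skin, against 134 ± 33.9 CPM in WT skin (SD, n = 3; adjusted p 0.613 in edgeR). Cyp26a1 and Stra8, which retinoic acid induces strongly in other tissues, were too rare to be tested.

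The other marker lists stood on either side of 0. None of their genes passed in edgeR. In DESeq2 6 skeletal muscle and 3 melanocyte genes passed, where 1.31% of all tested genes did. The unadjusted p was under 0.05 for 10 skeletal muscle, 7 melanocyte, 4 dermal papilla, 3 fibroblast, 2 dendritic cell and macrophage and 1 endothelial gene. Of all tested genes, 9.02% had such a p. The median log2 fold change was 0.35 for 13 tested dermal papilla genes, -0.32 for 14 fibroblast, -0.047 for 8 basal keratinocyte, -0.076 for 12 sebaceous gland, 0.69 for 10 adipocyte, -0.11 for 14 dendritic cell and macrophage, 0.072 for 6 endothelial, 1.27 for 7 melanocyte and 4.05 for 10 skeletal muscle genes. The dermal papilla list, from a site where Crabp1 is known to be expressed, summed to 265, 202 and 220 CPM in IL-33 KO libraries 1 to 3, against 186, 156 and 279 CPM in WT libraries 1 to 3. Their part in the Crabp1 values was not tested. The muscle list summed to 169, 18.0 and 364 CPM in IL-33 KO, against 13.2 to 17.3 CPM in WT. The part of the muscle genes in the values of the 9 genes was not tested.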

How the data were processed

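The series holds 6 RNA-seq libraries, 3 per genotype, grouped by their titles. The authors deposited whole-number read counts per gene and FPKM values; mm10, STAR and RSEM are named, per the submitters' processing notes. Recomputed from counts, gene lengths and column totals, the deposited FPKM values came out the same. Settings and strand handling are not given in the sources used.

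The main test was edgeR 4.0.16 under R 4.3.3: filterByExpr (15720 of 35275 genes), TMM, quasi-likelihood F test (glmQLFit, glmQLFTest, two-sided), Benjamini-Hochberg over all tested genes, threshold 0.05. SEs come from the F statistic. CPM are counts relative to the TMM-scaled library size. The scripts were tested on simulated data. Every pair of libraries differed beyond sampling noise (chi-square of at least 31.7 per degree of freedom). The members and gene lists were chosen with earlier results of these data known. Named are the members, the 10 pathway genes and the 4 responsive genes with the smallest p, abundant genes of marker lists, and the 5 genes closest to Stra6, of which 1 pathway and 1 responsive gene are not reported here; Lrat, Islr2, the Stra6 neighbours and other genes given for context were added later. Of 221 listed symbols 220 were matched, 3 through another name. The hair follicle gene list and 10 other cell type lists came from textbook markers. Alternatives were other size factors, no filter, DESeq2 1.42.0, limma 3.58.1 on log2(FPKM + 1) and log2(FPKM + 0.1), the replicate block, and each library left out. Figures used matplotlib 3.10.9.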

Additional observations from a re-analysis of the deposited data

How the results depend on the processing

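The number of genes past the threshold, 3 in edgeR (2 higher and 1 lower), was 5 with upper quartile or total-count scaling (4 higher and 1 lower in each), 33 without the filter, 206 in DESeq2, 15 with limma on log2(FPKM + 1), 11 on log2(FPKM + 0.1), 6 on log2(FPKM + 1) without the filter, and 2 to 24 when a library was left out, with 24 for WT 3 left out, 10 for IL-33 KO 2 and 5 for IL-33 KO 3. In none of the 15 alternatives did any of the 8 members other than Stra6, or any of the other pathway genes, pass. The filtered limma fits held 6 of these 8 members, without Aldh1a2 and Rarb, and 37 other pathway genes, where edgeR tested 41. The log2 fold change of Stra6 stayed between 1.13 and 1.34. Across 23 genes (the members, 10 pathway and 4 responsive genes), 326 of 339 alternative values kept their direction. The pathway and responsive genes were picked by small p in the same fit, and Stra6 by this contrast. Their direction was thus largely set in advance, and all 13 values that turned belong to other members. The exceptions were Aldh1a2 (-1.67 to 1.05 over the left-out libraries), Aldh1a3 (-0.46 to 0.24), Dhrs9 (-0.58 to 0.077), Rarb (-0.17 to 0.10, and 0.053 with total counts and 0.019 with log2(FPKM + 1) unfiltered) and Rarg (-0.10 to 0.014, and 0.021 with total counts, 0.023 with log2(FPKM + 1), filtered or not, and 0.024 with log2(FPKM + 0.1)). Replicate numbers did not pair the libraries, as deviations of same-numbered libraries correlated at -0.264, -0.117 and -0.378, and the replicate block gave 2 genes. The members with the fewest counts per library were Aldh1a2 (12 to 143) and Rarb (22 to 42), with SEs of 0.93 and 0.30. What limits each was not tested.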
